A study of Mus musculus with 9 samples.

Results

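The genes described here are 10 targets of beta-catenin that mark hepatocytes around the central vein and do not encode cytochrome P450 enzymes: Glul, Slc1a2, Oat, Rhbg, Gulo, Avpr1a, Lect2, Notum, Axin2 and Tbx3. They were taken by symbol from a liver count table of 24419 gene symbols, in which each of the 10 had 1 entry. The table covers 9 liver libraries from male FVB mice on a normal diet, 3 in each of 3 groups. MODEL1 mice, each 18 weeks of age at sampling, carried plasmid-borne NFE2L2 G31A together with CTNNB1 T41A. In MODEL2 mice, aged 19, 20 and 22 weeks, NFE2L2 T80K took the place of G31A beside the same CTNNB1 plasmid. In both models 20 µg of each plasmid in 2 ml saline was given by hydrodynamic tail vein injection, which pushes plasmid into hepatocytes, and Sleeping Beauty transposase was delivered too, an enzyme that integrates the transposon genes. CTRL mice were 13, 13 and 17 weeks old. The series' design text describes injection at 6 to 8 weeks of age and a control group that carried wild-type NFE2L2 with the same CTNNB1 T41A, looked at 14 weeks after injection. The labels of the sequenced CTRL mice do not say whether or with what they were injected, and mice injected and sampled at the times described would have been older than every CTRL mouse sequenced. The CTRL libraries therefore do not match that description, and whether they carry the same beta-catenin change is not known. Livers were sequenced whole, per the labels, and only the cells that took up plasmid carry it. The labels do not state outright that every library came from a separate mouse, so p-values measure the spread between these libraries.

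In the liver lobule, Wnt ligands and R-spondin from endothelial cells of the central vein keep beta-catenin active in the hepatocytes next to it, and those cells express a set of genes that hepatocytes near the portal vein do not. Part of the set handles nitrogen: glutamine synthetase fixes the ammonia that escaped the urea cycle, and transporters bring in glutamate and ammonia. Another part, such as Axin2 and Notum, dampens Wnt signalling in a negative feedback loop. The T41A change removes a phosphorylation site through which beta-catenin is marked for degradation, and both NFE2L2 changes lie where the NRF2 protein is bound by its inhibitor KEAP1.

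Promoter sequence of 6 of the 10 genes (Glul, Slc1a2, Oat, Avpr1a, Lect2 and Axin2) was available from RefSeq, build GRCm38.p6, as windows of 250 bases before to 50 bases after the annotated start. Each window was searched on both strands for CTTTGA, the core of the element bound by TCF/LEF, the DNA-binding partners of beta-catenin, and for TGACNNNGC, the core of the antioxidant response element bound by NRF2; these patterns were counted separately. The TCF/LEF core was found in 2 of the 6 genes, and 5257 of 32851 mouse windows of the same length held it, which is 16.0%. In Slc1a2 the match on the minus strand of the window began at position -206 from the start and that on the plus strand at -77. In Lect2 it began at -31 on the minus strand of the window, counting its first printed base. The antioxidant core was in none of the 6 windows, against 12.4% of all windows. A match is a run of letters, not a measured binding site. The sequences, 5′ to 3′ in the direction of transcription, are the 250 bases before the start of Glul, the gene of the set with most counts and no match, and of the 2 genes with a match, in which capitals mark the core as read on the printed strand (TCAAAG where it lies on the other strand). Glul lies at chr1:153899679-153899928 on the plus strand, Slc1a2 at chr2:102706188-102706437 on the plus strand and Lect2 at chr13:56548539-56548788 on the minus strand. The RefSeq start of Slc1a2 falls inside the gene's GENCODE span.
Glul: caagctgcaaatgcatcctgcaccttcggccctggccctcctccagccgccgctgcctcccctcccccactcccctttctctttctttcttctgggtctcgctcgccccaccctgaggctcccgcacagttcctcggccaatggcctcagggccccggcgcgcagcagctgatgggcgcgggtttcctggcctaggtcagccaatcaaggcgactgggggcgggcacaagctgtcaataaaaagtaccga
Slc1a2: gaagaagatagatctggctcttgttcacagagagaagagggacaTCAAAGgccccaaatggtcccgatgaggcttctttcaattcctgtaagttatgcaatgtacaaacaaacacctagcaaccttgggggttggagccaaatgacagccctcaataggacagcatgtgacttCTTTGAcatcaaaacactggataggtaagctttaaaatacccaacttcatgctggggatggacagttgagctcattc
Lect2: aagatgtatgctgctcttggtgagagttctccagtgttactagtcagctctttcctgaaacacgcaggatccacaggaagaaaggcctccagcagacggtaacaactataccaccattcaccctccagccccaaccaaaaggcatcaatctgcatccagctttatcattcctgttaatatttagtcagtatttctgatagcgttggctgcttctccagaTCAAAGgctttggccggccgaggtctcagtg

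The libraries held few counts assigned to genes, 219504 to 325177 each, and the number of reads sequenced was not examined. A gene with 0 counts could still lie at up to 3 counts, which is 9.23 to 13.7 CPM (counts scaled by library size). The 10 genes together held 166 to 255 counts in each MODEL1 library, 72 to 106 in each MODEL2 library and 6 to 26 in each CTRL library. All 11 hepatocyte markers present in the table were detected, Alb, Apoa1, Ahsg and Cps1 among them. Their summed share of counts was 0.150% to 0.276% in MODEL1, 0.170% to 0.213% in MODEL2 and 0.258% to 0.307% in CTRL. In contrast, Ass1, of the urea cycle, and the globin genes Hba-a1, Hba-a2, Hbb-bs and Hbb-bt had 0 counts in every library. Why these genes were not recorded was not tested, and a low total of counts may not be the only reason for a 0. Rn45s, the ribosomal RNA precursor, took 2.68% to 13.4% of counts in MODEL1, 2.20% to 4.11% in MODEL2 and 2.43% to 10.3% in CTRL, and passed 8% in CTRL replicate 1 and MODEL1 replicates 1 and 3, called rich in Rn45s here. Symbols with an exon opposite another gene's exon were 24.1% of the 23333 placed on mm10 and held 74.9% to 82.5% of the placed counts per library. Ctnnb1 itself, the gene whose mutant form was delivered, had 23 counts over MODEL1, 16 over MODEL2 and 8 over CTRL. Its MODEL1 over CTRL ratio was 2.44 (exact 95% counting interval 1.05 to 6.30) and its MODEL2 over CTRL ratio was 1.88 (0.757 to 5.06). These intervals leave out the spread between libraries. The groups overlapped, at 9.86 to 45.6 CPM in MODEL1, 8.29 to 34.7 CPM in MODEL2 and 0 to 24.6 CPM in CTRL.

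The summed level of the gene set did not overlap between groups: it was 510 to 1162 CPM in MODEL1 libraries, 290 to 439 CPM in MODEL2 libraries and 24.2 to 107 CPM in CTRL libraries. The means were 752 ± 356 CPM in MODEL1, 354 ± 77.1 CPM in MODEL2 and 66.0 ± 41.2 CPM in CTRL (SD, n = 3 each). Without Glul and Notum, the 2 with most counts, the other 8 summed to 264 ± 140 CPM in MODEL1, 157 ± 29.2 CPM in MODEL2 and 46.3 ± 19.1 CPM in CTRL. Their sums ran from 148 to 419 CPM in MODEL1, 128 to 187 CPM in MODEL2 and 24.2 to 57.4 CPM in CTRL. For these 8 the models overlapped, and both lay above CTRL. In whole liver, more cells of one type and more RNA per cell cannot be told apart. Rhbg, the ammonium channel of pericentral hepatocytes, had 0 counts in all 9 libraries, so nothing more is said of its level. Its exons overlap those of Gm38392 on the same strand, and whether this bears on the 0 counts was not tested. Glul, Slc1a2, Gulo, Avpr1a and Notum passed the filter on low counts and were tested by edgeR's quasi-likelihood test over 2639 genes, a gene being called at an adjusted p under 0.05, while Oat, Rhbg, Lect2, Axin2 and Tbx3 did not pass. For those that did not, counts were summed over the 3 libraries of a group and compared as a ratio of scaled counts with an exact 95% counting interval, which leaves out the spread between mice. In MODEL1 over CTRL, 5 of the 9 detected genes (Glul, Slc1a2, Gulo, Notum and Tbx3) had all libraries above those of CTRL, beside 8.57% of all 14907 genes detected and 21.8% of the genes tested. In MODEL2 over CTRL these and Avpr1a did, beside 6.10% of genes detected and 21.1% of those tested. In MODEL2 over MODEL1, Avpr1a lay wholly higher, beside 3.98% of genes detected and 13.4% of those tested. Glul, Axin2 and Tbx3 lay wholly lower, beside 6.35% of genes detected and 12.9% of those tested.

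**Figure D1:**
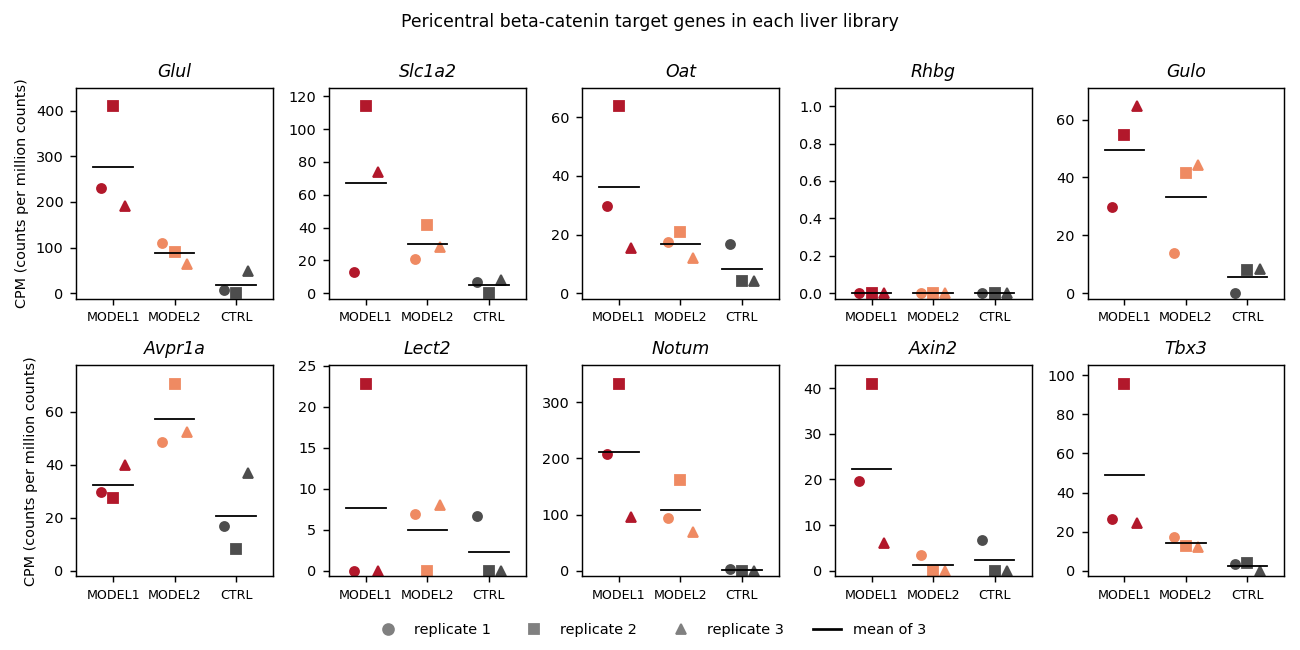
CPM (counts scaled by library size) of the 10 genes in every library, with MODEL1, MODEL2 and CTRL from left to right; symbols mark replicates and lines the mean of 3. Each panel has its own linear axis from 0; the 3 MODEL1 and 3 MODEL2 libraries lie above all CTRL libraries for Glul, Slc1a2, Gulo, Notum and Tbx3, and Rhbg is at 0 throughout.

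Glul, which encodes glutamine synthetase and lies on chromosome 1 (mm10, 153899944 to 153909723, plus strand), was higher in both models. It had 230, 410 and 191 CPM in MODEL1, 111, 91.2 and 64.4 CPM in MODEL2 and 6.72, 0 and 49.2 CPM in CTRL. The 3 groups did not overlap, and the highest CTRL library was replicate 3, which held 12 of the 14 CTRL counts. The log2 fold change by edgeR's quasi-likelihood test was 3.77 ± 0.56 (SE) for MODEL1 over CTRL, with a Benjamini-Hochberg adjusted p of 2.7e-05. For MODEL2 over CTRL it was 2.21 ± 0.60, adjusted p 0.0162 by the same edgeR test. Glul was also lower in MODEL2 than in MODEL1, at -1.56 ± 0.45 and an edgeR adjusted p of 0.0387. Without CTRL replicate 3 the log2 fold changes were 5.84 for MODEL1 and 4.28 for MODEL2 over CTRL. The MODEL2 over CTRL call was lost without CTRL replicate 1 (1.82, edgeR adjusted p 0.0863), MODEL2 replicate 1 (1.97, 0.0692) or MODEL2 replicate 2 (2.18, 0.0524), and the MODEL2 over MODEL1 call was lost without any 1 of the 6 libraries of the models (edgeR adjusted p 0.0536 to 0.198). Exon bases at the 5′ end of Glul overlap an exon of Teddm2 on the opposite strand over 116 bp, 3.49% of its exon length, and Teddm2 had 0 counts in every library.

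Slc1a2, the glutamate transporter also called GLT-1 (chromosome 2, 102658659 to 102790784, plus strand), rose in MODEL1. It had 13.1, 114 and 73.8 CPM in MODEL1, 20.8, 41.5 and 28.2 CPM in MODEL2 and 6.72, 0 and 8.20 CPM in CTRL. Every library of either model was above every CTRL library, and MODEL1 spread widely, with its replicate 1 below all 3 MODEL2 libraries. The MODEL1 over CTRL log2 fold change was 3.40 ± 0.83 (edgeR adjusted p 0.00416). For MODEL2 over CTRL it was 2.35 ± 0.90 with an edgeR adjusted p of 0.0914, and for MODEL2 over MODEL1 it was -1.05 ± 0.64 with 0.387, neither past the threshold. An exon of the antisense gene Gm13872 overlaps 1.44% of the Slc1a2 exon bases.

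Oat, ornithine aminotransferase, which links ornithine to glutamate (chromosome 7, 132557478 to 132576398, minus strand), had 29.6, 63.8 and 15.4 CPM in MODEL1, 17.3, 20.7 and 12.1 CPM in MODEL2 and 16.8, 4.04 and 4.10 CPM in CTRL. The groups overlapped through CTRL replicate 1. From 28 counts over MODEL1, 13 over MODEL2 and 7 over CTRL, the scaled ratio was 3.39 (1.45 to 9.19) for MODEL1 over CTRL and 1.74 (0.646 to 5.16) for MODEL2 over CTRL. With no filter on low counts, edgeR gave Oat an adjusted p of 0.378 for MODEL1 over CTRL. Without CTRL replicate 1 the ratios were 7.62 and 3.91. The MODEL1 level also leaned on replicate 2, which held 14 of the 28 MODEL1 counts. No exon of another gene lies opposite Oat, Rhbg (chromosome 3, 88242874 to 88254709, minus strand), Gulo, Avpr1a or Lect2.

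Gulo, L-gulonolactone oxidase, makes vitamin C in its last step in the mouse (chromosome 14, 65986786 to 66009207, minus strand). It had 29.6, 54.7 and 64.6 CPM in MODEL1, 13.9, 41.5 and 44.3 CPM in MODEL2 and 0, 8.08 and 8.20 CPM in CTRL. All 6 model libraries exceeded the 3 CTRL libraries, and the models overlapped each other. In MODEL1 Gulo rose by a log2 fold change of 3.02 ± 0.79 (edgeR adjusted p 0.00727), and by 2.43 without CTRL replicate 1 (0.0396). In MODEL2 the value was 2.46 ± 0.83 with an edgeR adjusted p of 0.0549, which did not pass the threshold. Without MODEL2 replicate 1, the lowest of its group, it was 2.81 with 0.0363. Leaving out MODEL2 replicate 2 gave 2.25 (edgeR adjusted p 0.150) and leaving out MODEL2 replicate 3 gave 2.22 (0.153). Of the 19 other settings, 17 did not pass either, among them age as a covariate (0.71, edgeR adjusted p 0.916). MODEL2 over MODEL1 was -0.56 ± 0.60 with an edgeR adjusted p of 0.669.

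Avpr1a, the vasopressin V1a receptor (chromosome 10, 122448499 to 122453452, plus strand), had its highest levels in MODEL2. It had 29.6, 27.3 and 40.0 CPM in MODEL1, 48.5, 70.5 and 52.3 CPM in MODEL2 and 16.8, 8.08 and 36.9 CPM in CTRL. MODEL2 libraries lay above those of both other groups, whereas MODEL1 and CTRL overlapped. No edgeR comparison passed the threshold: the log2 fold change was 0.55 ± 0.59 for MODEL1 over CTRL (adjusted p 0.557), 1.37 ± 0.57 for MODEL2 over CTRL (0.124) and 0.81 ± 0.53 for MODEL2 over MODEL1 (0.422). Lect2, a protein secreted by hepatocytes (chromosome 13, 56542464 to 56548502, minus strand), had 5 counts over MODEL1, all in replicate 2, 4 over MODEL2 and 2 over CTRL. Its ratios were 2.12 (0.347 to 22.2) for MODEL1 over CTRL and 1.88 (0.269 to 20.7) for MODEL2 over CTRL. No difference was detectable from so few counts.

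Notum, a secreted enzyme that inactivates Wnt ligands by removing their lipid (chromosome 11, 120653788 to 120661175, minus strand), was almost absent from CTRL libraries and among the most abundant of the set in both models. It had 207, 333 and 95.3 CPM in MODEL1, 93.6, 162 and 68.4 CPM in MODEL2 and 3.36, 0 and 0 CPM in CTRL, where 1 count was found in all. No model library came near a CTRL library, and the models overlapped. The ratio of scaled counts was 141 (25.0 to 5621) for MODEL1 over CTRL and 77.8 (13.6 to 3111) for MODEL2 over CTRL. By edgeR the log2 fold change was 6.78 ± 0.78 in MODEL1 (adjusted p 8.4e-07) and 5.87 ± 0.84 in MODEL2 (3.3e-05). These fitted values depend on the prior count since CTRL is near 0. DESeq2 gave larger errors, at 7.11 ± 1.28 in MODEL1 and 6.20 ± 1.28 in MODEL2. MODEL2 over MODEL1 was -0.91 ± 0.42 with an edgeR adjusted p of 0.213. Without CTRL replicate 1, the library with the 1 count, the fitted values were 8.74 and 7.83. Antisense exons cover part of Notum, Notumos 29.4% and Myadml2os 8.72% of its exon bases; neither name is in the table, and with no strand setting stated, reads of Notum and these genes cannot be told apart.

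Axin2, the scaffold of the complex that degrades beta-catenin (chromosome 11, 108920349 to 108950783, plus strand), had most of its counts in MODEL1 libraries. It had 6, 9 and 2 counts in MODEL1, 1, 0 and 0 in MODEL2 and 2, 0 and 0 in CTRL. MODEL2 libraries, at 3.47, 0 and 0 CPM, lay below all MODEL1 libraries, at 19.7, 41.0 and 6.15 CPM, and MODEL1 replicate 3 lay just below CTRL replicate 1 at 6.72 CPM. The ratio was 0.0651 (0.00156 to 0.416) for MODEL2 over MODEL1, 7.20 (1.71 to 64.3) for MODEL1 over CTRL and 0.469 (0.00795 to 9.01) for MODEL2 over CTRL. With no filter, edgeR did not call Axin2 in MODEL2 over MODEL1 (-3.53 ± 1.40, adjusted p 0.389) or in MODEL1 over CTRL (2.71 ± 1.29, 0.391).

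Tbx3, a T-box transcriptional repressor (chromosome 5, 119670669 to 119684724, plus strand), had 26.3, 95.7 and 24.6 CPM in MODEL1, 17.3, 12.4 and 12.1 CPM in MODEL2 and 3.36, 4.04 and 0 CPM in CTRL. Its 3 groups did not overlap. The ratio was 15.7 (4.04 to 134) for MODEL1 over CTRL, 5.16 (1.13 to 47.9) for MODEL2 over CTRL and 0.329 (0.151 to 0.659) for MODEL2 over MODEL1. With no filter on low counts, edgeR called Tbx3 higher in MODEL1 than in CTRL, at 3.77 ± 0.97 and an adjusted p of 0.00394, and DESeq2 gave it 0.0233. In MODEL2 over CTRL the unfiltered edgeR value was 2.23 ± 1.09 with an adjusted p of 0.584. Without MODEL1 replicate 2 the MODEL1 over CTRL ratio was 9.52 and the MODEL2 over MODEL1 ratio 0.542. Antisense exons of Gm11670 cover 3.80% of the Axin2 exon bases and those of Tbx3os1 cover 1.74% of the Tbx3 exon bases.

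**Figure D2:**
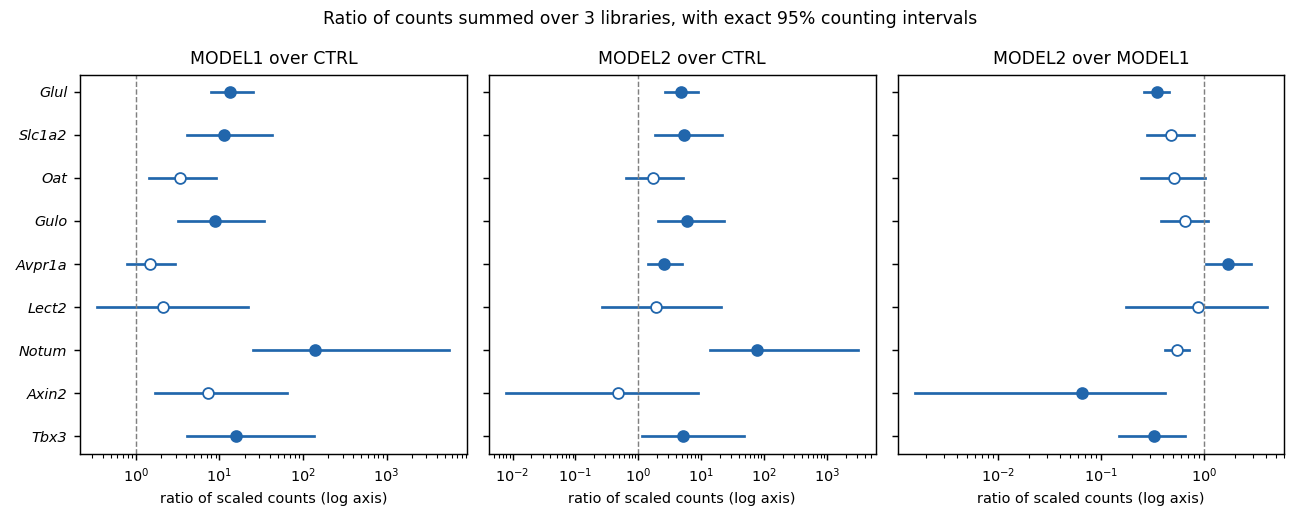
Ratio of counts summed over 3 libraries and scaled by effective library size, on log axes, for the 9 genes detected; bars are exact 95% counting intervals, filled points mark genes whose libraries do not overlap between groups, and the dashed line is a ratio of 1. The Notum interval runs from 25.0 upward in MODEL1 over CTRL, and in MODEL2 over MODEL1 the Axin2, Glul and Tbx3 points lie left of 1 and Avpr1a right of it.

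Between groups, the counts of calls were as follows. In MODEL1 over CTRL, 4 of the 5 tested genes were called higher (Glul, Slc1a2, Gulo and Notum), beside 11.9% of all 2639 tested genes called higher, and the median log2 fold change was 3.40 over the 5 against 0.00 over all tested. The filter on low counts can be passed by a high level in 1 group alone, which favours such calls and a high median. The genes were also chosen with earlier results of these data known, so the medians only describe them. In MODEL2 over CTRL, 2 were called higher (Glul and Notum), beside 8.30% of tested genes, and the median was 2.35 against 0.00. In MODEL2 over MODEL1, Glul was called lower, beside 3.41% of tested genes, and the median was -0.91 against 0.01. Without a filter, over 14907 genes, Tbx3 joined the MODEL1 calls, beside 2.13% of genes called higher, while none was added in MODEL2, beside 1.25%. The MODEL1 and MODEL2 comparisons share the CTRL libraries. By role, the 4 nitrogen genes summed to 380 ± 180 CPM in MODEL1, 136 ± 27.0 CPM in MODEL2 and 31.9 ± 28.8 CPM in CTRL. Notum, Axin2 and Tbx3 summed to 283 ± 173 CPM in MODEL1, 123 ± 47.4 CPM in MODEL2 and 5.83 ± 6.90 CPM in CTRL. Gulo, Avpr1a and Lect2 summed to 89.5 ± 26.3 CPM in MODEL1, 95.3 ± 22.8 CPM in MODEL2 and 28.3 ± 15.0 CPM in CTRL (SD, n = 3 each).

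Age ran with the groups, since every CTRL mouse was younger than every model mouse, and age and group cannot be fully told apart. With age in weeks as a covariate, Glul (3.07, edgeR adjusted p 0.0135) and Notum (7.88, 1.46e-04) stayed called in MODEL1 over CTRL, while Slc1a2 (3.0 ± 1.30, adjusted p 0.165) and Gulo (2.03 ± 1.16, 0.327) did not. The Slc1a2 value was close to that without age, with a larger error. In MODEL2 over CTRL, Notum stayed called (7.59, 0.0164) and Glul did not (1.01 ± 1.14, 0.785). Leaving out the 3 libraries rich in Rn45s leaves MODEL1 replicate 2 alone in its group, so the spread comes from the other groups and that library is assumed to vary like them. In that smaller fit Gulo in MODEL1 (2.43, edgeR adjusted p 0.165) and Glul in MODEL2 (1.82, 0.112) did not pass the threshold, and whether Rn45s or the number of libraries accounts for this was not tested. MODEL1 replicate 2 was also the highest MODEL1 library for 7 of the 9 genes detected. Of 7 macrophage markers, none passed the filter for testing and 6 were detected, with Adgre1 at 0. They summed to 18 to 25 counts per library in MODEL1, 8 to 11 in MODEL2 and 7 to 12 in CTRL, with Cd68 at 37, 12 and 11 counts over MODEL1, MODEL2 and CTRL and Csf1r at 15, 13 and 14. Cholangiocyte markers summed to 3 to 4 counts in MODEL1, 0 to 1 in MODEL2 and 0 in CTRL, with Krt7, Epcam and Spp1 at 0 everywhere. Endothelial markers had Wnt2 at 0 and the other 10 of 11 detected. They summed to 72 to 93 counts in MODEL1, 64 to 127 in MODEL2 and 116 to 121 in CTRL. As shares of counts the groups overlapped, at 0.0237% to 0.0424%, 0.0222% to 0.0527% and 0.0407% to 0.0481%. Of 2 tested, edgeR called Eng lower in MODEL1 (-0.95 ± 0.28, adjusted p 0.0164) and did not call Stab1. With age as a covariate Eng was at -1.04 and was not called (edgeR adjusted p 0.140). Its call was also lost with library size alone (-0.78, edgeR adjusted p 0.0738). The same held without CTRL replicate 2 (edgeR adjusted p 0.0571), MODEL1 replicate 1 (0.0608) or MODEL1 replicate 2 (0.0501). Among 7 tested hepatocyte markers, edgeR called Apob higher and Alb, Apoa1, Cps1 and Fgb lower in MODEL1, and Ahsg, Alb and Apoa1 lower in MODEL2. The part of these cell types in the results was not tested.

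**Figure D3:**
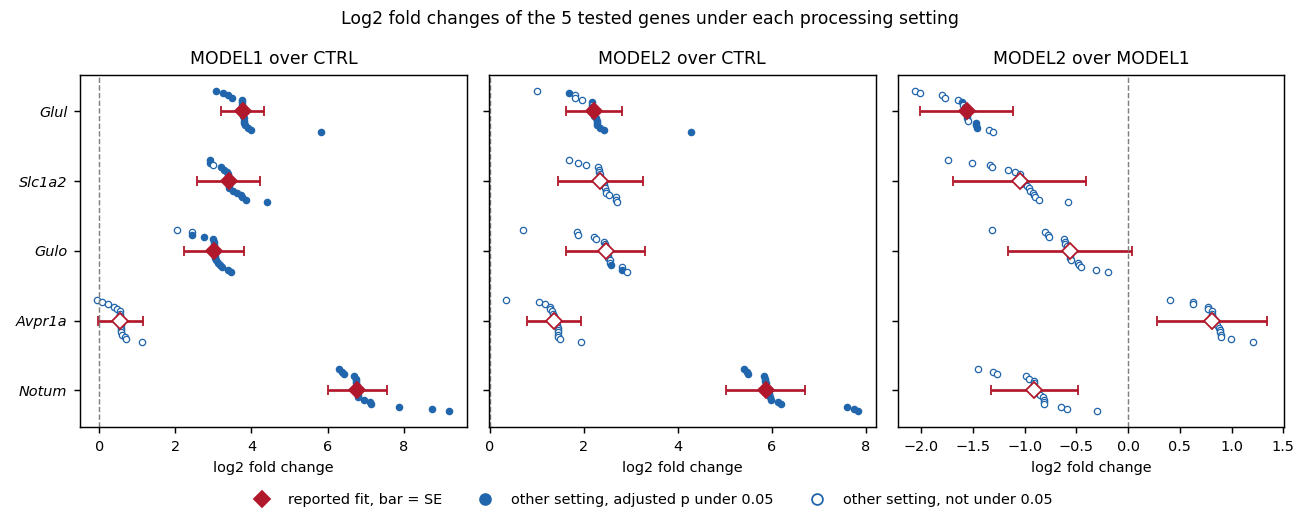
Log2 fold change of the 5 tested genes in each comparison, with the reported edgeR fit as a diamond (bar, SE) and the 19 other settings as points; filled symbols have an adjusted p under 0.05. Notum is filled in both models against CTRL at every setting, and the Glul points for MODEL2 over MODEL1 lie between -2.06 and -1.31 with 10 of 19 unfilled.

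Levels were also scaled per kilobase of merged GENCODE exons, to set genes side by side. The annotation and strand setting of the counting are not known, and antisense exons cover part of Notum. The order of genes is therefore approximate. Notum and Glul led in MODEL1, at 87.9 ± 49.3 and 83.3 ± 35.2 CPM per kb, and were not separable by their spread. They also led in MODEL2, at 44.8 ± 20.0 and 26.7 ± 7.02 CPM per kb, followed by Avpr1a at 21.4 ± 4.40 and Gulo at 14.7 ± 7.43, and the libraries of each of these neighbours overlapped. In CTRL the order was Avpr1a at 7.71 ± 5.54, Glul at 5.61 ± 8.03, Oat at 3.52 ± 3.12, Lect2 at 2.44 ± 4.22 and Gulo at 2.40 ± 2.08 CPM per kb, and Notum was at 0.465 ± 0.806 (SD, n = 3 each). Neighbours in the CTRL order overlapped.

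Other genes of the same pathways were counted from lists. Of 12 further pericentral genes, 5 were tested, and in MODEL1 over CTRL 2 rose by edgeR: Aldh1a1, a retinaldehyde dehydrogenase, by 1.88 ± 0.54 (adjusted p 0.0137), and Slco1b2, an organic anion transporter, by 1.68 ± 0.54 (0.0258). None of the 5 was called in MODEL2. Among 10 pericentral P450 genes, 5 were tested; Cyp2a5 (3.92 ± 0.40, 1.4e-07) and Cyp1a2 (3.04 ± 0.46, 3.2e-05) rose and Cyp3a11 fell (-1.99 ± 0.59, 0.0161) in MODEL1, and Cyp2a5 and Cyp1a2 rose in MODEL2 (2.18 ± 0.41 and 1.62 ± 0.49). Like Glul, both were lower in MODEL2 than in MODEL1 by edgeR, at -1.74 ± 0.34 and -1.42 ± 0.39. The Cyp1a2 difference between the models was lost without MODEL1 replicate 2 or 3 or any MODEL2 library (edgeR adjusted p 0.0530 to 0.192), with age (0.0904), with the replicate block (0.0762) and with library size alone (0.0546). Of 18 periportal genes, 5 were tested, and Pck1, of gluconeogenesis (-4.18 ± 0.68), Cps1, of the urea cycle (-2.88 ± 0.57), and Pigr, the polymeric immunoglobulin receptor (-2.45 ± 0.54), fell in MODEL1, with Pck1 alone called lower in MODEL2 (-2.35 ± 0.57). Over all tested genes, 11.0% were called lower in MODEL1 and 4.96% in MODEL2, beside the 11.9% and 8.30% called higher. Of the pericentral and periportal calls above, those of Cps1 (-1.88), Pigr (-1.57), Slco1b2 (1.44) and Cyp3a11 (-2.99) in MODEL1 were lost without the libraries rich in Rn45s. The call of Cyp1a2 in MODEL2 over CTRL (1.51) was lost too. DESeq2 did not call Pigr (adjusted p 0.107) or Slco1b2 (0.0699) in MODEL1. In the list of 23 glutamine and ammonia genes that holds Cps1, 9 were tested and the amino acid transporter Slc38a4 also fell in MODEL1 (-2.62 ± 0.68). Of 7 further genes of vitamin C synthesis and transport, 4 were tested; Ugdh, which makes the UDP-glucuronate that precedes Gulo's substrate, rose in both models, with 63, 25 and 2 counts over MODEL1, MODEL2 and CTRL and ratios of 26.7 (7.09 to 225) and 11.7 (2.92 to 102), and the vitamin C transporter Slc23a1 fell in MODEL1 (-1.10 ± 0.38). Among 16 further Wnt target genes, 3 were tested and only Prox1, a hepatocyte transcription factor, was called, lower in MODEL1 (-1.33 ± 0.45, edgeR adjusted p 0.0362). Other Wnt targets had few counts: Lgr5 had 5, 0 and 2 counts over MODEL1, MODEL2 and CTRL, Nkd1 5, 9 and 2, Rnf43 0, 4 and 2, and Sp5 0, 5 and 2. Of 17 components of the Wnt pathway 2 were tested and neither was called. Leaving out the libraries rich in Rn45s also ended the MODEL1 calls of Prox1 (-0.75) and Slc23a1 (-0.39). It ended the call of Ugdh in MODEL2 over CTRL (2.77) as well. DESeq2 called neither Prox1 nor Slc23a1 in MODEL1. Leaving out 1 library ended at least 1 call each of Aldh1a1, Slco1b2, Cyp3a11, Prox1, Slc23a1, Cyp1a2 in MODEL2, Pck1 in MODEL2 and Ugdh in MODEL2, while Cyp2a5, Cyp1a2, Pck1, Cps1 and Ugdh in MODEL1 over CTRL kept theirs when 1 library was left out. With age as a covariate, the calls of Slco1b2, Cyp3a11, Pigr, Slc38a4, Slc23a1 and Prox1 in MODEL1 ended, as did those of Cyp1a2, Cyp2a5, Pck1 and Ugdh in MODEL2 over CTRL. In MODEL2 the values with age were 1.09 ± 0.98 for Cyp1a2, 2.35 ± 0.88 for Cyp2a5, -2.69 ± 1.09 for Pck1 and 5.51 ± 2.13 for Ugdh, of which only Cyp1a2 was smaller than without age, and all 4 errors were larger. In MODEL1 they were 0.60 ± 0.69 for Slco1b2, -0.61 ± 0.81 for Cyp3a11, -1.72 ± 0.74 for Pigr, -1.84 ± 0.96 for Slc38a4, -0.37 ± 0.58 for Slc23a1 and -1.13 ± 0.65 for Prox1, each closer to 0 than without age. Cyp2a5 belongs to a family of near-identical genes that can share reads.

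**Figure D4:**
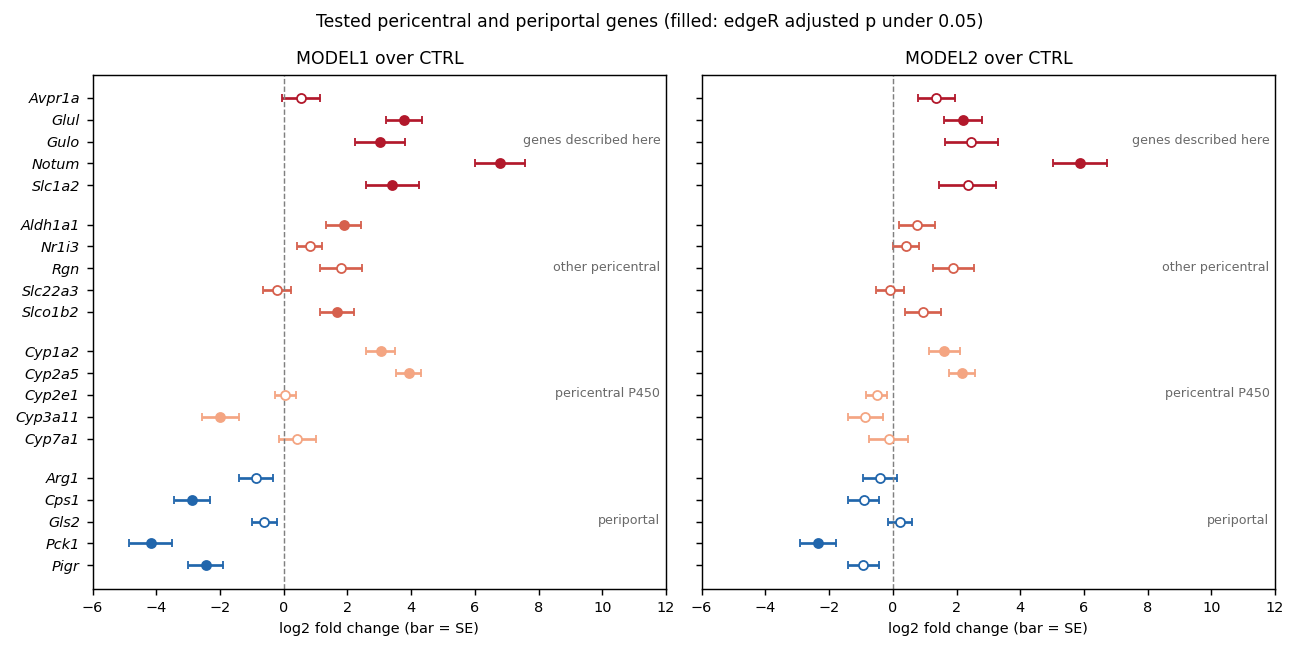
Log2 fold changes with SE of the tested genes described here, other pericentral genes, pericentral P450 genes and periportal genes, for MODEL1 over CTRL on the left and MODEL2 over CTRL on the right; filled points were called by edgeR. The called genes described here lie right of 0, and the called periportal genes (Pck1, Cps1 and Pigr in MODEL1, Pck1 in MODEL2) lie left of 0.

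Across the 9 libraries, on log2 CPM, the 5 tested genes correlated with one another at Pearson r from 0.500 (Gulo and Avpr1a) to 0.879 (Glul and Notum), a description in which the points share their groups and depth. The 5 other tested genes most like Glul were Cyp1a2 (r = 0.979), Creb3 (0.957), Slco1b2 (0.957), Jade3 (0.956) and Pigh (0.950). Those most like Notum were Thy1 (0.987), Lrp12 (0.985), Lrrc75b (0.975), Slc22a12 (0.974) and Uvrag (0.974). Thy1 had 127 counts over MODEL1, 67 over MODEL2 and 0 over CTRL, and Lrrc75b had 982, 313 and 2, so both shared with Notum a near absence in CTRL. Creb3, Pigh, Slc22a12 and Uvrag have exons opposite another gene's exon, and their counts carry the same uncertainty of strand.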

How the data were processed

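RNA from mouse liver was extracted with Trizol and sequenced from standard Illumina libraries, per the labels' protocols. The authors deposited raw counts, whole-number reads per gene symbol with no normalization. Trimmomatic 0.38, HISAT2 2.1.0 and HTSeq 0.11.2 with build mm10 are named in the submitters' processing notes, without roles; the annotation and the strand setting of the counting are not given in the sources used here. Library totals ran from 219504 to 325177 counts, and intervals and floors cover counting error only.

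Counts were analysed as deposited with edgeR 4.0.16 in R 4.3.3: filterByExpr with a minimum count of 10, which kept 2639 genes, TMM scaling, and the quasi-likelihood test over all 9 libraries with 1 coefficient per group. Tests were two-sided, adjusted by Benjamini-Hochberg over all tested genes, with a threshold of 0.05. Each edgeR SE was derived from the test, as the absolute log2 fold change divided by the square root of the test's F statistic. DESeq2 1.42.0 was an alternative. The fit was tested on simulated data. Genes were placed with GENCODE M21. The 10 genes and all lists were chosen with earlier results of these data known. Named were all 10 genes, their opposite-strand neighbours, Ctnnb1, up to 3 called genes of each list by smallest adjusted p, and the 5 tested genes with the highest Pearson r to Glul and to Notum on log2 CPM with a prior count of 2; any further gene was picked with its values in view. Alternatives were another test, normalization or filter, age as a covariate, a replicate block, and libraries left out.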

Additional observations from a re-analysis of the deposited data

How the results depend on the processing

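Counts of called genes and of called members of the set of 10 are given here under settings that moved them by over 1.5 times. For MODEL1 over CTRL, 602 genes were called, against 299 with age in the model and 274 when the 3 Rn45s-rich libraries were left out; of the set, 4 were called, against 2 with age. For MODEL2 over CTRL, 350 genes were called, against 71 with age, 207 without the libraries rich in Rn45s and 221 to 379 with each library left out in turn; of the set, 2 were called, against 1 with age, 1 without the libraries rich in Rn45s and 1 to 2 with a library left out. For MODEL2 over MODEL1, 192 genes were called, against 101 with age, 125 with the replicate number as a block, 70 without the libraries rich in Rn45s and 79 to 224 with a library left out; of the set, Glul alone was called, and the count was 0 with library size alone, with age, with the block and without the libraries rich in Rn45s, and 0 to 1 with a library left out. The replicate numbers did not pair the samples: deviations of log2 CPM from the group means correlated between same-numbered libraries at -0.121 to 0.0103. Avpr1a in MODEL1 over CTRL turned to -0.05 with age. Of the other log2 fold changes recomputed for called or tested genes, 630 kept direction and side of the threshold, 108 kept direction but lost it and 2 gained it. The cause of these shifts was not tested. Oat, Lect2, Axin2 and Tbx3 rest on ratios of few counts. Without MODEL2 replicate 1, Axin2 had 0 counts in MODEL2, and without MODEL1 replicate 2, Lect2 had 0 in MODEL1.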
